A study of Mus musculus with 24 samples.

Results

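The level of 10 genes of heart muscle was read in total RNA of the right lung lobe from 6 inbred mouse strains: the atrial genes Myl7, Myl4 and Nppa, and Myh6, Actc1, Tnnt2, Ttn, Mybpc3, Ryr2 and Casq2, which are general to heart muscle. The genes were taken from a list by their symbol in the probe annotation, and the list was drawn up with earlier results of these data known. All 10 of the 10 listed were found among the 13499 genes measured, each by 1 probe set. A transgene for TGF-beta1, a cytokine that drives scarring of the lung, was carried by 17 mice (TG), and 7 were wild type (WT). Each array held the RNA of a separate mouse, and all 24 mice, WT included, drank doxycycline, the drug that turns the transgene on, for 2 weeks. C57BL6/J was represented by 2 TG and 2 WT mice, and A/J, AKR/J, S129, Balb/cJ and C3H by 3 TG mice and 1 WT mouse each. The sources used here do not give the promoter and cell type that drive the transgene, or the sex and age of the mice, and the level of the transgene was not analysed here. The series asks what modifies the response of the lung to TGF-beta1, and by its design the strains A/J, AKR/J and C57BL6/J are prone to fibrosis, while S129, Balb/cJ and C3H resist it. The labels of single samples carry a code for fibrosis whose key would swap the sets. Taken that way, each prone minus resistant value would change sign.

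In the mouse, cardiac muscle does not end at the heart: a sleeve of it continues from the left atrium along the wall of the pulmonary veins into the lung. Its cells resemble those of the atrium, with the atrial forms of the myosin light chains, a sarcomere of thick and thin filaments, and a sarcoplasmic reticulum that releases calcium at each beat. In people the sleeves are best known as the place where many episodes of atrial fibrillation start. A lung lobe also holds smooth muscle, endothelium and epithelium, and tissue at its root can add fat, nerve and pieces of heart. The arrays measured the RNA of the whole lobe and do not show where in it a transcript lay. In such bulk samples fewer cells of a type and less RNA per cell cannot be told apart.

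Levels are log2 intensities. The median of an array lay between 7.76 and 7.83, and mice of the same group correlated across genes at 0.992 to 0.997 in 17 pairs. The tissue label held on Sftpc, the surfactant gene of alveolar type 2 cells, which lay between 14.21 and 14.46 in TG mice and between 14.28 and 14.43 in WT mice. Of the cardiac genes, Mybpc3 and Casq2 lay below the array median in 23 of 24 mice and Nppa in 11, and none lay below the array's lower quartile in any mouse. Probe sets of near-identical genes can bind each other's transcripts, so the signals of Myh6 and of its paralog Myh7, and of Actc1 and the other muscle actins, are uncertain in their origin. The number of arrays limits the precision, and a strain with 1 WT mouse borrows its spread from the other groups.

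The sequences around the start sites of the genes are shown because most of the 10 genes moved together. RefSeq's promoter table (mouse build GRCm38.p6, 250 bases before to 50 bases after a gene's start) held 11 windows for the 10 genes, 2 of them for Tnnt2. The windows of Myl7 and Nppa stand for the atrial genes and those of Actc1 and Mybpc3 for the sarcomere, with Mybpc3 as the member of that kind that moved least. Capitals mark matches, on either strand, to the CArG box, the MEF2 box in its strict palindromic form, TGATAA and CATTCC, the letters bound by serum response factor, MEF2, GATA and TEAD factors, and no match overlapped another. Positions are those of the first base of a match.
Myl7 (chr11:5898733-5899032, minus strand): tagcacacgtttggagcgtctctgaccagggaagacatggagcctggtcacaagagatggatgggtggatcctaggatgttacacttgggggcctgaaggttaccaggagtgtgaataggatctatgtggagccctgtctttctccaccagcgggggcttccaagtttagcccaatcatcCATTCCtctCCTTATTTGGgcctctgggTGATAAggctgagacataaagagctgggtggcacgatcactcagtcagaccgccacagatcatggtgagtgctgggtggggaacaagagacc
Nppa (chr4:148000472-148000771, plus strand): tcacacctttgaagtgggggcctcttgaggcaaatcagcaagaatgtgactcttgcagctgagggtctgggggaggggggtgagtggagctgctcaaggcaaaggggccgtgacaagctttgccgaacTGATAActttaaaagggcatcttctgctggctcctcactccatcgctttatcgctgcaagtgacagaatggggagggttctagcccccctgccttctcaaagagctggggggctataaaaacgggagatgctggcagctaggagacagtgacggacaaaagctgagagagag
Actc1 (chr2:114052826-114053125, minus strand): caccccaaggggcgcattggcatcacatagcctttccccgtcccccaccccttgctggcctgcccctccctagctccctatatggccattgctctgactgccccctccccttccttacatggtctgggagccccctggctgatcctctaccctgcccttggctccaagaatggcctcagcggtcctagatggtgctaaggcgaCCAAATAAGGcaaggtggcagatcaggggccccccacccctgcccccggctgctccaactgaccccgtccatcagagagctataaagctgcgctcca
Mybpc3 (chr2:91117894-91118193, plus strand): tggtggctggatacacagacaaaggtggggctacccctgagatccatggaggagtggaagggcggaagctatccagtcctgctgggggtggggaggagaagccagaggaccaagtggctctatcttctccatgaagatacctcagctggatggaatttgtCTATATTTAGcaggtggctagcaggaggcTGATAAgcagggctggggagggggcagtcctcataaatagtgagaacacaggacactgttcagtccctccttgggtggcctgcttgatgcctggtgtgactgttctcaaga

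Myl7 held a CArG box 61 bases before the start, TGATAA at 42 bases and CATTCC at 70 bases before it. Actc1 held a CArG box 47 bases before its start, and Nppa held TGATAA 122 bases before its own. In Mybpc3 the matches were a MEF2 box at 90 bases and TGATAA at 61 bases before the start. Among the windows not printed, Ttn held a MEF2 box at 166 bases before and CATTCC 11 bases after the start, Myh6 held CATTCC at 206 bases before it, and 1 of the Tnnt2 windows held CATTCC at 27 bases before it. No match was found in the windows of Myl4, Ryr2 or Casq2 under these forms, and looser forms of the MEF2 box were not searched. Of all 32851 promoter windows in the table, 1.63% held the CArG box, 0.557% the MEF2 box, 9.05% TGATAA and 14.7% CATTCC, against 2, 2, 3 and 4 of the 10 genes. A match is a description of the letters and does not show a bound site.

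Heart muscle genes were lower in the lungs of TG mice. With strain accounted for, 8 of the 10 fell, all but Nppa and Mybpc3, by 0.60 (Casq2) to 0.92 (Myl7) on the log2 scale, which is 1.52-fold to 1.89-fold lower. A gene was called where its p-value from limma, adjusted over all 13499 genes, was under 0.05. By this rule 13.5% of all genes were lower in TG mice and 13.2% higher, and 0 of the 10 cardiac genes were higher. The median TG minus WT difference was -0.74 over the 10 genes and -0.00 over all genes. In 5 of the 10 (Myl4, Myh6, Actc1, Tnnt2 and Ttn) every TG mouse lay below every WT mouse of its own strain in all 6 strains, which held for 3.68% of all genes. Levels also differed between strains, and for 0 of the 10 genes did all 17 TG mice lie below all 7 WT mice regardless of strain, as 0.615% of all genes did.

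**Figure D1:**
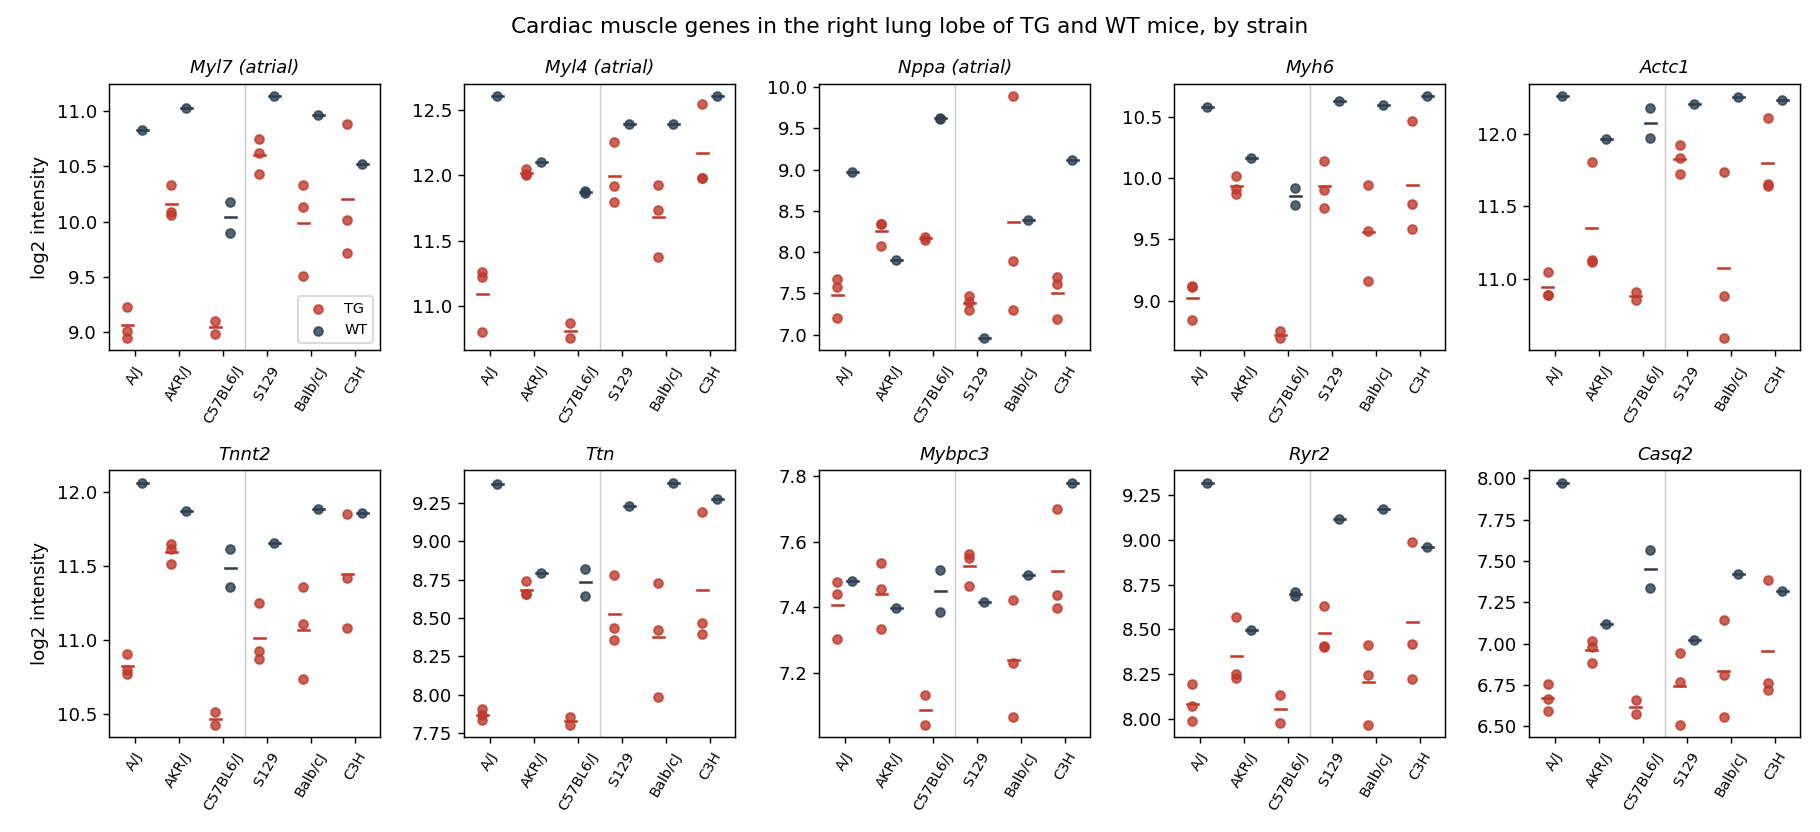
Each panel plots the log2 intensity (vertical axis) of 1 cardiac gene in each of 24 mice, with the TG mice (red, left) beside the WT mice (dark blue, right) of the same strain. Short lines are group means, the grey line parts prone from resistant strains, and the vertical scale differs between panels. Most TG mice lay below the WT mice of their strain, while every TG mouse was above the WT mouse for Nppa in AKR/J and S129 and for Mybpc3 in S129.

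Myl7 encodes the regulatory light chain of atrial myosin. Its level in TG mice ran from 8.95 over a median of 10.06 to 10.88, and in WT mice from 9.90 over 10.83 to 11.14. The difference was -0.92 ± 0.15 (SE, 17 TG and 7 WT mice, limma adjusted p = 8.4e-05). The ranges overlapped, since 7 of 17 TG mice lay below the lowest WT mouse, and within strains the groups were apart in 5 of 6. The TG mice of A/J had 8.95, 9.23 and 9.01, against 10.83 in the WT mouse, the widest gap of the 6 strains. For AKR/J the TG values were 10.06, 10.09 and 10.33, against 11.03 in WT. Among C57BL6/J mice, the TG values were 9.11 and 8.98 and the WT values 9.90 and 10.18, so that WT mice of this strain sat where TG mice of other strains did. In S129 the TG mice had 10.44, 10.75 and 10.62, against 11.14 in WT, and in Balb/cJ 9.51, 10.13 and 10.33, against 10.96. C3H was the strain with overlap, because its TG mouse 3, at 10.88, lay above the WT mouse at 10.53, while the other TG mice had 10.01 and 9.71.

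Myl4 encodes the essential light chain of atrial myosin. The TG mice ran from 10.75 over 11.92 to 12.55 and the WT mice from 11.86 over 12.40 to 12.61, a difference of -0.72 ± 0.13 (adjusted p = 0.00023). In A/J the TG values were 11.26, 11.22 and 10.80, against 12.61 in WT. Those of C57BL6/J were 10.87 and 10.75, against 11.88 and 11.86. These were the 2 strains with a gap of over 1 log2 unit. AKR/J had the narrowest gap, with 12.0002, 12.0126 and 12.0501 in TG mice and 12.1055 in the WT mouse. S129 had 11.80, 12.26 and 11.92 in TG mice, against 12.40, and Balb/cJ had 11.38, 11.74 and 11.93, against 12.40. In C3H the TG values were 11.98, 11.98 and 12.55 and the WT value 12.61.

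Nppa encodes atrial natriuretic peptide, a hormone that atrial muscle stores and releases on stretch. Its level ran from 7.19 over 7.68 to 9.90 in TG mice and from 6.95 over 8.97 to 9.63 in WT mice, and 0 of the 17 TG mice lay below the lowest WT mouse. The difference of -0.68 ± 0.28 did not pass (adjusted p = 0.08). Nppa had the widest spread of the 10 genes. Within groups its SD was 0.58, larger than that of 99.8% of all genes. In A/J the TG mice had 7.58, 7.68 and 7.20, against 8.97 in WT. C57BL6/J had 8.15 and 8.19 in TG mice, against 9.63 and 9.61. The C3H values were 7.61, 7.19 and 7.70 in TG mice and 9.12 in the WT mouse. In these 3 strains the groups were apart by over 1 log2 unit, and in AKR/J and S129 the order was the other way round. The TG mice of AKR/J had 8.34, 8.35 and 8.08, against 7.90 in WT. Those of S129 had 7.40, 7.47 and 7.29, against 6.95, the lowest value of any mouse. Balb/cJ held the highest value of any mouse, with 7.30, 7.90 and 9.90 in TG mice around a WT value of 8.39. Single mice decided the call on Nppa: the difference was -0.88 (adjusted p = 0.03) without the WT mouse of S129, -0.87 (0.032) without that of AKR/J, and -0.80 (0.0062) without TG mouse 3 of Balb/cJ. Over all 38 alternatives it stayed below 0, between -0.88 and -0.47, with adjusted p from 0.0062 to 0.36.

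Among the genes of the sarcomere, Myh6 encodes the fast heavy chain of cardiac myosin, which in the mouse drives the beat of atrium and ventricle. Its level ran from 8.69 over 9.76 to 10.46 in TG mice and from 9.78 over 10.58 to 10.67 in WT mice, a difference of -0.91 ± 0.13 (adjusted p = 1.9e-05). The TG mice of A/J had 9.11, 9.12 and 8.84, against 10.58 in WT, and those of C57BL6/J had 8.75 and 8.69, against 9.92 and 9.78. In Balb/cJ the TG values were 9.16, 9.57 and 9.94 and the WT value 10.60. The gap was narrowest in AKR/J, with 9.91, 9.87 and 10.02 in TG mice and 10.16 in WT. S129 had 9.90, 10.14 and 9.76 in TG mice, against 10.63. C3H had 9.59, 9.79 and 10.46, against 10.67. In all 6 strains every TG mouse was below the WT mice.

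Actc1, the actin of the cardiac thin filament, was the member whose groups came nearest to parting over all strains. The 17 TG mice ran from 10.59 over 11.13 to 12.11 and the 7 WT mice from 11.96 over 12.21 to 12.26, a difference of -0.87 ± 0.14 (adjusted p = 7e-05). Of the TG mice, 16 of 17 lay below the lowest WT mouse, and the exception was TG mouse 3 of C3H, at 12.11. A/J had 10.89, 10.89 and 11.05 in TG mice, against 12.26 in WT, and C57BL6/J had 10.85 and 10.91, against 12.18 and 11.97. The TG mice of AKR/J had 11.13, 11.12 and 11.81, against 11.96, and those of Balb/cJ 10.59, 10.89 and 11.74, against 12.26. In both of these strains TG mouse 3 stood above the other two. S129 had 11.84, 11.92 and 11.72 in TG mice, against 12.21 in WT. In C3H the TG values were 11.66, 11.64 and 12.11 and the WT value 12.23.

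Tnnt2 encodes cardiac troponin T, which ties the calcium sensor of the thin filament to tropomyosin. Its TG values ran from 10.43 over 11.08 to 11.85 and its WT values from 11.36 over 11.86 to 12.06, a difference of -0.75 ± 0.11 (adjusted p = 2.3e-05). Of the 17 TG mice, 12 lay below the lowest WT mouse. Ttn encodes titin, the spring that spans the sarcomere. It ran from 7.802 over 8.42 to 9.19 in TG mice and from 8.65 over 9.23 to 9.38 in WT mice, a difference of -0.81 ± 0.13 (adjusted p = 5.9e-05), with 11 TG mice below the lowest WT mouse. For both genes the TG mice of every strain lay below its WT mice, though in C3H TG mouse 3 came within a narrow margin of WT, at 11.85 against 11.86 for Tnnt2 and 9.19 against 9.28 for Ttn.

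Mybpc3 encodes the cardiac form of myosin-binding protein C, which restrains the myosin heads. It was the sarcomere gene that differed least, at 7.04 over 7.44 to 7.70 in TG mice and 7.38 over 7.48 to 7.78 in WT mice, a difference of -0.15 ± 0.06 (adjusted p = 0.076). The groups overlapped, with 6 of 17 TG mice below the lowest WT mouse. In A/J, where the other sarcomere genes differed most, the TG mice had 7.44, 7.48 and 7.30, against 7.48 in WT. C57BL6/J had 7.04 and 7.13 in TG mice, against 7.51 and 7.38. The direction was the other way in S129, with 7.55, 7.56 and 7.46 in TG mice and 7.42 in WT. As with Nppa, single WT mice decided the call, and the difference was -0.20 (adjusted p = 0.024) without the WT mouse of S129 and -0.18 (0.04) without that of AKR/J. Over the 38 alternatives it lay between -0.20 and -0.09, with adjusted p from 0.024 to 0.39.

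Of the calcium store, Ryr2 encodes the channel that releases calcium from the sarcoplasmic reticulum of heart muscle. Its level ran from 7.97 over 8.25 to 8.98 in TG mice and from 8.49 over 8.96 to 9.32 in WT mice, a difference of -0.67 ± 0.11 (adjusted p = 6.7e-05). Of the TG mice, 14 of 17 lay below the lowest WT mouse, and within strains the groups overlapped in AKR/J and C3H, each through its TG mouse 3 (8.57 against 8.49, and 8.98 against 8.96). Casq2 encodes calsequestrin, which holds calcium inside the store. It ran from 6.51 over 6.76 to 7.38 in TG mice and from 7.02 over 7.34 to 7.98 in WT mice, a difference of -0.60 ± 0.12 (adjusted p = 0.00044). Here 15 of 17 TG mice lay below the lowest WT mouse, and C3H was the strain with overlap, with 6.72, 6.76 and 7.38 in TG mice and 7.32 in WT.

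The estimated difference varied from strain to strain, though the F-test of strain dependence, given below, called 0 of the 10 genes. In A/J all 10 genes were below WT, with a median of -1.41, and 8 of 10 were called lower, against 8.08% of all genes. Myl7 fell by 1.77 ± 0.33 there (3.41-fold, adjusted p = 0.0015), Myh6 by 1.56 ± 0.27 (0.0011), Myl4 by 1.52 ± 0.23 (0.00039) and Ttn by 1.503 ± 0.26 (0.00099). Actc1, Casq2, Ryr2 and Tnnt2 fell by 1.24 to 1.32. Nppa, at -1.49 ± 0.57, did not pass (adjusted p = 0.096), nor did Mybpc3, at -0.07 ± 0.13. These values rest on 1 WT mouse, the highest of all 24 mice in the mean of the 10 genes. In C57BL6/J, the strain with 2 WT mice, all 10 were again below WT, with a median of -1.005, and 9 of 10 were called lower, against 7.39% of all genes. Actc1 fell by 1.20 ± 0.28 (adjusted p = 0.0078), Myh6 by 1.13 ± 0.24 (0.0039), Myl4 by 1.06 ± 0.20 (0.0018) and Mybpc3 by 0.36 ± 0.11 (0.042). Nppa had the widest difference of the strain, -1.45 ± 0.50, and did not pass (0.061). The count in C57BL6/J rested on few mice: 3 genes were called without its WT mouse 1, and 4 without either of its TG mice.

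In Balb/cJ all 10 genes were below WT, with a median of -0.89, and 1 of 10 was called, against 1.27% of all genes called lower. That gene was Ryr2, which fell by 0.96 ± 0.22 (adjusted p = 0.03). Actc1 (-1.19 ± 0.32), Myh6 (-1.04 ± 0.27) and Ttn (-1.005 ± 0.26) just missed the threshold, with adjusted p of 0.064, 0.056 and 0.054. The count in Balb/cJ was 5 without TG mouse 3 of Balb/cJ or of C3H, 4 without TG mouse 1 of C3H, 2 without TG mouse 3 of A/J or of AKR/J, and 0 without TG mouse 1 or TG mouse 2 of Balb/cJ. In C3H all 10 were below WT, with a median of -0.42, and 0 were called, against 0.333% of all genes. Nppa differed most there (-1.62 ± 0.57, adjusted p = 0.32). In S129 8 of 10 were below WT, with a median of -0.47, and 0 were called, against 1.39% of all genes. Ttn had the largest difference in that strain, -0.71 ± 0.26 (adjusted p = 0.16). AKR/J stood nearest to 0: 8 of 10 genes were below WT, with a median of -0.15, and 0 were called, against 0.570% of all genes. Its largest differences were those of Myl7 (-0.87 ± 0.33, adjusted p = 0.22) and Actc1 (-0.61 ± 0.32, 0.44), and the other members lay between -0.28 and 0.35. At an unadjusted p under 0.05, 3 genes passed in C3H, 4 in S129 and 1 in AKR/J. The share of all genes that passed without adjustment was not counted, so these counts cannot be weighed against it.

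**Figure D2:**
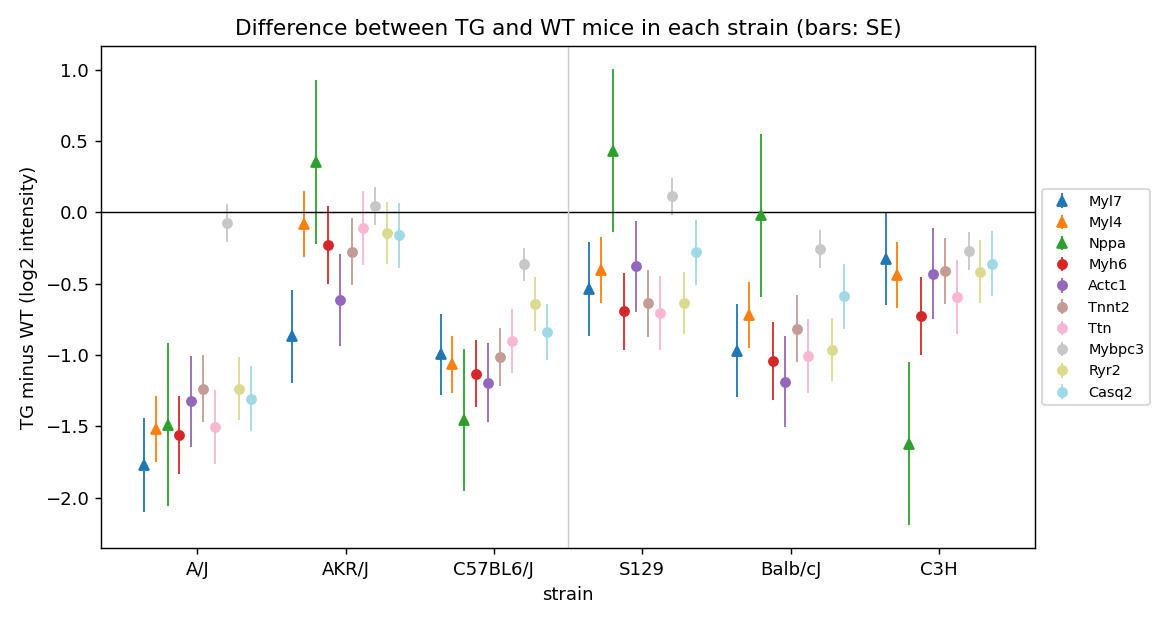
The TG minus WT difference (vertical axis, log2 intensity, bars are SE from limma) of the 10 cardiac genes is drawn for each strain, with triangles for the atrial genes, circles for the others, and a grey line between prone and resistant strains. In A/J 9 of the 10 members lay at -1.24 or lower, in AKR/J 8 lay between -0.28 and 0.35, and Nppa had the longest bars.

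Whether these strain differences were larger than the spread between mice was tested over the 6 strains together. An F-test of the 6 strains' TG effects called 0 of the 10 genes, against 1.34% of all genes. Myl4 had the lowest adjusted p, 0.13, and the others ran from 0.24 (Casq2) to 0.53 (Actc1). Of the 10 genes, 5 passed at an unadjusted p under 0.05, for which no share over all genes was counted. Without TG mouse 3 of Balb/cJ 1 gene was called. No contrast of A/J with AKR/J alone was fitted, so a call in A/J and none in AKR/J is not a test of that pair. Myl4 differed by -1.52 in A/J and -0.08 in AKR/J, the widest contrast of strains for that gene.

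The atrial genes were set beside the general cardiac genes. The median TG minus WT difference was -0.72 over the 3 atrial genes, whose values ran from -0.92 to -0.68, and -0.75 over the 7 general ones, whose values ran from -0.91 to -0.15. The medians differed by 0.02, and by -0.12 to 0.08 with any 1 mouse left out. By strain, the atrial median was -1.52 and the general one -1.31 in A/J, -0.08 and -0.16 in AKR/J, and -1.06 and -0.90 in C57BL6/J. In S129 they were -0.40 and -0.64, in Balb/cJ -0.72 and -0.96, and in C3H -0.44 and -0.42. The atrial median was thus the lower one in A/J, C57BL6/J and C3H and the higher one in the other 3 strains. No test was made of these medians, which rest on 3 and 7 genes. The 3 atrial genes also differed among themselves, since Myl7 and Myl4 were below WT in every strain on average and Nppa was not.

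Set by set, 8 of the 10 genes were lower in TG than in WT mice of the prone strains, against 11.5% of all genes, and 7 in the resistant strains, against 5.78%. Casq2 was the gene that differed in call, at -0.77 ± 0.13 in prone strains (adjusted p = 0.00026) and -0.41 ± 0.13 in resistant strains (0.056). Myl7 differed by -1.21 ± 0.18 in prone and -0.61 ± 0.19 in resistant strains, and Ryr2 by -0.67 ± 0.12 and -0.67 ± 0.13. The difference between the sets was itself tested and called 0 of the 10, against 0.474% of all genes. It was largest for Myl7, at -0.60 ± 0.26 (adjusted p = 0.38), and lay between -0.46 and 0.01 for the others. Of the 10 genes, 1 passed at an unadjusted p under 0.05, for which no share over all genes was counted. Without the WT mouse of AKR/J 1 gene was called.

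In TG mice alone, the prone strains had lower levels than the resistant strains of 5 genes, against 4.69% of all genes lower and 6.44% higher, and of 0 genes a higher one. These were Myl7 (-0.84 ± 0.14, adjusted p = 0.00075), Myl4 (-0.64 ± 0.10, 0.00041), Myh6 (-0.59 ± 0.12, 0.0031), Actc1 (-0.51 ± 0.14, 0.022) and Ttn (-0.40 ± 0.11, 0.026). Tnnt2 (-0.21 ± 0.10), Ryr2 (-0.25 ± 0.09), Mybpc3 (-0.12 ± 0.06), Casq2 (-0.10 ± 0.10) and Nppa (0.22 ± 0.24) did not pass. The tests take mice as the unit, so they speak of these 6 strains and not of prone and resistant strains at large. The count was 2 without C57BL6/J, 3 without A/J, S129 or TG mouse 1 of C57BL6/J, and 8 without Balb/cJ, of which 7 were lower and Nppa was higher (0.52, adjusted p = 0.0013). Nppa was also called higher in prone TG mice (0.47, adjusted p = 0.0045) when TG mouse 3 of Balb/cJ was left out. In WT mice the same contrast called 0 of the 10, against 0.741% of all genes, with Myh6 at -0.43 ± 0.18 (adjusted p = 0.41) and Nppa at 0.68 ± 0.39 (0.59). Of the 10 genes, 1 passed at an unadjusted p under 0.05, for which no share over all genes was counted. Nppa was called (adjusted p = 0.044) without TG mouse 3 of Balb/cJ.

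The prone strains did not lie together. Across the 6 strains the level in TG mice differed in 7 of the 10 genes by the F-test, against 31.4% of all genes. Adjusted p was 8.1e-05 for Myl4, 0.0004 for Myl7, 0.00059 for Myh6, 0.0014 for Tnnt2, 0.0045 for Ttn, 0.0099 for Actc1 and 0.017 for Mybpc3. Ryr2 (0.089), Nppa (0.17) and Casq2 (0.37) did not pass. For 9 of the 10 genes C57BL6/J had the lowest TG mean, and for 8 A/J came next. AKR/J, the remaining prone strain, lay higher, and for Tnnt2, Ttn and Casq2 it had the highest TG mean of the 6 strains. For Myl7 the TG means were 9.04 ± 0.09 (SD, n = 2) in C57BL6/J and 9.06 ± 0.15 (n = 3) in A/J, which did not differ beyond their spread. Then came Balb/cJ at 9.99 ± 0.43, AKR/J at 10.16 ± 0.15 and C3H at 10.20 ± 0.61, whose ranges overlapped, and S129 at 10.60 ± 0.16 (n = 3 each). For Tnnt2 AKR/J was the highest, at 11.59 ± 0.07, above C3H at 11.45 ± 0.38, and C57BL6/J was the lowest, at 10.47 ± 0.06. Nppa had another order, with S129 lowest at 7.39 ± 0.09 and Balb/cJ highest at 8.36 ± 1.36, a rank that rests on its TG mouse 3 at 9.90, beside 7.30 and 7.90 in the others.

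Mice of 1 group differed in these genes more than in most. The SD within groups was 0.104 for the median gene, 0.327 for Myl7, 0.320 for Actc1 and 0.120 for Mybpc3. For every member other than Mybpc3 it was larger than that of at least 94.7% of all genes, and for Mybpc3 larger than that of 65.5%. The members moved together from mouse to mouse. With group means removed, the median Pearson correlation over the 45 pairs of members was 0.73, and over the 28 pairs without Nppa and Mybpc3 it was 0.84, from 0.55 to 0.97. The median correlation of a member with the genes outside the list was -0.00. Correlations of both signs cancel in that median, so it does not show how often other sets of genes move together. These values are a description, since all members were read from the same RNA of 24 mice. Nppa followed the others least, with a median correlation of 0.57 with group means removed, near the 0.63 of Mybpc3, and of 0.30 over the 24 mice without that step. The mean of the 10 genes, each centred on its mean over 24 mice, was -0.57, -0.23 and 0.28 in the TG mice of Balb/cJ and -0.14, -0.14 and 0.47 in those of C3H. Within each of these strains 1 TG mouse thus lay inside the range of the 7 WT mice, which ran from 0.27 to 0.73.

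The 8 genes outside the list whose levels were most like this mean over the 24 mice were mostly genes of muscle. Kcnj3, a subunit of the acetylcholine-gated potassium channel of the atrium, came first (Pearson's r = 0.946, Spearman's rho = 0.964, r = 0.944 without the 2 mice farthest from the median, r = 0.953 in the 17 TG mice). Eno3, the muscle enolase, had r = 0.938, Ckmt2, the mitochondrial creatine kinase of striated muscle, 0.936, and Actn2, the alpha-actinin of the Z disc, 0.935. Ldb3 (0.923), another Z-disc protein, and Myoz2 (0.910), which binds calcineurin there, followed. Mybphl (0.922), a relative of myosin-binding protein C found in the atrium, and Afap1l1 (0.910), which binds actin filaments, completed the 8. Without the 2 farthest mice the 8 values lay between 0.899 and 0.944. With group means removed they ran lower for most, from 0.640 for Afap1l1 over 0.785 for Myoz2 to 0.954 for Kcnj3. The correlations share arrays and the TG against WT difference, and they carry no p.

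Kcnj3 ran from 6.95 over 7.43 to 7.99 in TG mice and from 7.76 over 7.995 to 8.45 in WT mice, and it fell by 0.72 ± 0.09 (adjusted p = 6.4e-06). Mybphl ran from 7.72 over 8.60 to 9.30 in TG mice and from 8.55 over 9.08 to 9.52 in WT mice. It fell by 0.66 ± 0.11, and Afap1l1 fell by 0.37 ± 0.06. All 3 had overlapping ranges. The 8 genes were picked by likeness to a mean that was itself lower in TG mice, so the choice favoured a fall. No p is therefore given for Mybphl and Afap1l1, which are on no other list.

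Other genes of heart muscle were read from lists of the same pathways. The counts of this list and of those below stand beside 13.5% of all genes called lower and 13.2% called higher in TG mice. Of 20 further sarcomere and Z-disc genes 12 were measured, of which 7 fell, 0 rose and 5 did not pass, with a median difference of -0.35 against -0.00 over all genes. Tnnc1, the calcium sensor of the cardiac thin filament, ran from 7.75 over 8.28 to 9.44 in TG mice and from 8.37 over 8.98 to 9.62 in WT mice and fell by 0.73 ± 0.12 (adjusted p = 6.2e-05). Actn2 fell by 0.62 ± 0.08 (2.7e-06), Myom1, the M-band protein, by 0.57 ± 0.08 (1.6e-05), Ldb3 by 0.44 ± 0.07 (8e-05) and Myoz2 by 0.89 ± 0.15 (0.00013). Of 8 of 12 further genes of calcium handling 3 fell, 2 rose and 3 did not pass, with a median of -0.10. Pln, phospholamban, the brake on the calcium pump of heart and smooth muscle, fell most, by 0.95 ± 0.11 (1.5e-06). Its 17 TG mice, from 7.81 over 8.43 to 9.004, lay below all 7 WT mice, from 9.05 over 9.24 to 9.70. Srl, sarcalumenin of the calcium store, fell by 0.34 ± 0.08 (0.0033) and Asph, whose locus also encodes junctin, by 0.17 ± 0.05 (0.0072), while Fkbp1b, which binds the release channel, rose by 0.23 ± 0.05 (0.00066).

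Of 16 genes of conduction and cell junctions 10 were measured, of which 5 fell, 3 rose and 2 did not pass, with a median of -0.16. Beside Kcnj3, Gja5, the gap junction protein of atrium and arterial endothelium, fell by 0.49 ± 0.10 (adjusted p = 0.00078) and Bves, a cAMP-binding membrane protein of striated muscle, by 0.42 ± 0.06 (8.3e-06). Gja1, a gap junction protein which many cell types of the lung also make, rose by 0.53 ± 0.06 (2.6e-06). Of 12 genes of energy supply in muscle 7 were measured, of which 4 fell and 0 rose, with a median of -0.39. These were Mb, myoglobin (-0.64 ± 0.15, 0.0023), Ckmt2 (-0.61 ± 0.10, 0.0001), Eno3 (-0.49 ± 0.09, 0.00016) and Pgam2, a muscle enzyme of glycolysis (-0.39 ± 0.08, 0.00099). Of 13 cardiac transcription factors 7 were measured and 0 were called, with a median of -0.02. Among them were Gata4 (-0.07 ± 0.04, adjusted p = 0.2), Gata6 (0.03 ± 0.04, 0.64), Hand1 (-0.06 ± 0.05, 0.37) and Shox2 (-0.07 ± 0.04, 0.19). Of the 7, 0 passed at an unadjusted p under 0.05, for which no share over all genes was counted. Gata6 is also a factor of lung epithelium and smooth muscle, and Gata4 passed without the WT mouse of S129 (-0.10, 0.049). Shox2 was dim, with a mean of 4.83 against lower quartiles of 6.24 to 6.35 on the arrays, so a difference may not show.

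Chamber markers beyond the 10 genes were few in the table. Of 10 further atrial genes 3 were measured and all 3 fell. They were Kcnj3 and Gja5, counted above with the conduction genes, and Nr2f1, a nuclear receptor, which fell by 0.16 ± 0.05 (adjusted p = 0.019). The call on Nr2f1 was lost without the WT mouse of A/J (-0.13, 0.083) or of C3H (-0.12, 0.088). Of 9 ventricular genes 5 were measured and 1 fell, Myh7, the slow heavy chain of cardiac myosin, by 0.54 ± 0.10 (0.0002). Myh7 is close in sequence to Myh6. Irx4, the ventricular homeobox factor (0.07 ± 0.06, 0.41), Hey2, a Notch target of ventricle and vessels (-0.12 ± 0.08, 0.25), and Mpped2 (-0.05 ± 0.10, 0.78) did not pass. The other 4 ventricular genes of the list were not analysed here.

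The receptors and effectors of natriuretic peptides sit mostly on cells other than heart muscle, and 10 of the 12 genes of this pathway, Nppa among them, were measured, of which 5 fell, 0 rose and 5 did not pass, with a median of -0.18. Npr1, the receptor of atrial natriuretic peptide, ran from 9.73 over 10.09 to 10.41 in TG mice and from 10.20 over 10.34 to 10.48 in WT mice and fell by 0.31 ± 0.07 (adjusted p = 0.0015). Npr3, the clearance receptor, fell by 0.63 ± 0.17 (0.0092), Prkg1, the cGMP-dependent kinase, by 0.29 ± 0.06 (0.0005) and Pde9a, a cGMP phosphodiesterase, by 0.18 ± 0.05 (0.012). The call on Pde9a was lost without the WT mouse of Balb/cJ (-0.13, 0.064) and, as was that on Npr3 (-0.56, 0.066), without C57BL6/J (-0.14, 0.099).

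Markers of the other tissues that a lung lobe can hold were set beside these values, and their part in the result was not tested. Skeletal muscle shares many sarcomere genes with the heart. Of its 23 markers 15 were measured, of which Neb rose by 0.17 ± 0.05 (adjusted p = 0.0087), Xirp2, which the heart also makes, fell by 0.26 ± 0.09 (0.041), and 13 did not pass, Actn3 (0.10 ± 0.05) and Myog (0.12 ± 0.06) among them. Their summed log2 level ran from 96.4 to 100.8 in TG mice and from 95.9 to 99.0 in WT mice, with a median difference of -0.01. These probe sets were dim, with means from 5.72 (Myh1) to 7.19 (Casq1), below the lowest array median of 7.76. Xirp2, at 5.73, lay below the lower quartile of the arrays (6.24 to 6.35). Signals this dim may not show a difference in skeletal muscle transcripts. Without C57BL6/J the call on Neb was lost (0.097, 0.11). The call on Xirp2 was lost in 13 of the 24 fits without 1 mouse, with the value nearest 0 (-0.17, 0.2) without the WT mouse of A/J.

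Adipose markers were lower too, and whether they came from fat at the root of the lung was not tested. Of 14 adipose markers 6 were measured, of which 5 fell and 0 rose, with a median of -0.58. Fabp4, the fatty acid carrier of adipocytes and of lung endothelium, ran from 7.77 over 8.20 to 8.90 in TG mice and from 8.66 over 9.14 to 10.46 in WT mice and fell by 1.02 ± 0.17 (adjusted p = 0.00013). Car3 fell by 0.94 ± 0.24 (0.0049), Adipoq, the adipocyte hormone, by 0.69 ± 0.20 (0.013) and Plin4, a lipid droplet protein, by 0.47 ± 0.10 (0.001). The summed level of the 6 markers ran from 45.8 to 51.5 in TG mice and from 48.2 to 57.4 in WT mice. The centred mean of these markers was highest in the WT mouse of C3H, at 1.31, and without that mouse the call on Adipoq was lost (-0.52, 0.065). Without C57BL6/J the calls on Adipoq (-0.48, 0.097) and Car3 (-0.66, 0.058) were lost. The 5 TG mice of A/J and C57BL6/J were among the 6 lowest mice by both lists, at -0.67 to -0.51 for the cardiac genes and -0.62 to -0.39 for the adipose markers. Other mice were apart by the lists, since the WT mouse of A/J had 0.73 for the cardiac genes and 0.02 for the adipose markers, and TG mouse 3 of C3H had 0.47 and 0.00.

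**Figure D3:**
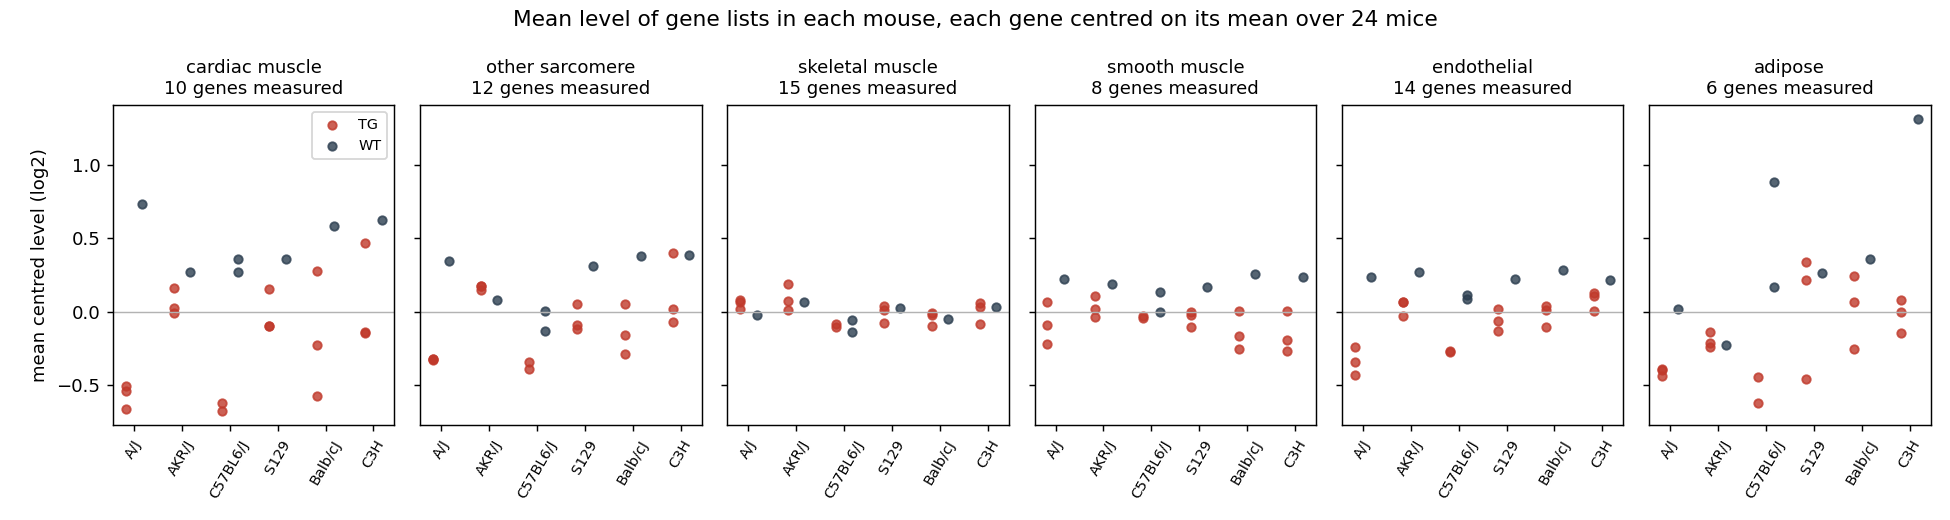
The mean log2 level of the 10 cardiac genes and of 5 other gene lists, each gene centred on its mean over 24 mice (vertical axis), is plotted for each mouse by strain, with TG mice in red to the left of WT mice in dark blue. Cardiac genes spread from -0.67 to 0.73, skeletal muscle markers stayed between -0.14 and 0.19, and the adipose markers reached 1.31 in the WT mouse of C3H. The skeletal muscle probe sets were dim, with means from 5.72 to 7.19, and may not show a difference.

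Vessel genes were lower as well. Of 20 endothelial markers 14 were measured, of which 12 fell and 0 rose, with a median of -0.28 and a summed level from 156.9 to 164.7 in TG mice and from 164.1 to 167.0 in WT mice. Tek, the angiopoietin receptor, fell by 0.60 ± 0.06 (adjusted p = 1e-07), Ramp2, a partner of the adrenomedullin receptor, by 0.49 ± 0.05 (5.5e-07), Eng, endoglin, by 0.46 ± 0.05 (3.1e-07) and Sox18 by 0.39 ± 0.06 (4.4e-05). Of 12 smooth muscle markers 8 were measured, of which 6 fell and 0 rose, with a median of -0.21 and a summed level from 77.4 to 80.3 in TG mice and from 79.5 to 81.6 in WT mice. Synpo2 fell by 0.52 ± 0.06 (8.5e-07), Myh11, the smooth muscle myosin heavy chain, by 0.52 ± 0.09 (0.00011), Des, desmin, which the heart shares, by 0.39 ± 0.08 (0.00055) and Mylk, the myosin light chain kinase, by 0.22 ± 0.04 (0.00015). The part of these cell types in the values of shared genes such as Pln, Gja5 and Des was not tested.

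Markers of mesothelium and epithelium went both ways, beside 13.5% of all genes called lower and 13.2% called higher in TG mice. Of 9 mesothelial markers 6 were measured, with a summed level from 55.0 to 59.2 in TG mice and from 55.2 to 58.1 in WT mice. Msln rose by 0.22 ± 0.06 (adjusted p = 0.015), Lrrn4 fell by 0.31 ± 0.09 (0.013) and Nkain4 by 0.17 ± 0.05 (0.0092), while Wt1 did not pass (-0.14 ± 0.07, 0.15). Without the WT mouse of S129 the call on Msln was lost (0.17, 0.07), and without that of A/J the call on Lrrn4 (-0.27, 0.055). Without C57BL6/J the calls on Lrrn4 (-0.22, 0.13) and Nkain4 (-0.13, 0.099) were lost. Of 12 markers of lung epithelium 8 were measured, with a summed level from 95.2 to 98.0 in TG mice and from 97.0 to 98.5 in WT mice. Scgb3a2 and Scgb1a1, secretory proteins of the airway, fell by 0.65 ± 0.14 (0.0012) and 0.29 ± 0.05 (6e-05), and Sftpd, a surfactant protein, rose by 0.23 ± 0.08 (0.037). Ager, of alveolar type 1 cells, differed by -0.09 ± 0.06 (0.32), and passed without the WT mouse of AKR/J (-0.16, 0.029). The call on Sftpd was lost in 8 of the 24 fits without 1 mouse, with the value nearest 0 (0.16, 0.17) without the WT mouse of A/J.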

How the data were processed

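RNA of 24 right lung lobes was read on whole-transcript arrays. Per the labels' protocols, fresh tissue was homogenised in Trisol, RNA was purified with a Qiagen kit, and cDNA and labelled target came from the Ambion WT Expression Kit. The deposited table gives 1 value per probe set and array, which was read as log2 intensity from its range of 3.41 to 14.8. Log base, summarisation, normalisation, software and build: not given in the sources used here. The authors' values were not rescaled. The table was held in part: of 25285 probe sets 1 was incomplete and left out, 14539 carried 1 gene symbol and 781 more than 1, while 9964 stay unnamed here, and genes of chromosomes 5 to 9, X and Y were mostly not analysed here. A gene with several probe sets (590 of 13499 genes) was taken by that of highest mean, and 13444 genes matched RefSeq by Entrez identifier.

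Groups, strain and genotype came from the labels. Tests were made with lmFit and eBayes of limma 3.58.1 (two-sided, Benjamini-Hochberg over all 13499 genes, threshold 0.05) in R 4.3.3: strain plus genotype for TG against WT over all strains (17 residual degrees of freedom), and 12 group means for the other contrasts and F-tests (12 degrees of freedom). The p-values set a difference against the spread between mice. In the fit of strain plus genotype that spread also holds differences of the TG effect between strains. The code of the fits was run on simulated data with independent noise for each gene and the same TG effect in every strain. That setting does not show how the tests behave for genes that move together, as the members do. Correlations, promoter matches and plots used Python 3.11.15, pandas 2.3.3 and matplotlib 3.10.9. Alternatives were the mean of a gene's probe sets, quantile normalisation, centring, leaving out the dimmest genes (mean below the lower quartile), another variance model, array weights, the replicate number as a block, equal weights of strains, and each mouse and each strain left out.

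The 10 members, the gene lists and the tests were chosen with earlier results of these data known. Named genes are the members, up to 4 genes of each list with the smallest adjusted p, and the 8 genes most correlated with the members' mean. Sftpc, the tissue check, is named as a defining marker.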

Additional observations from a re-analysis of the deposited data

Results flagged for a closer look

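In some strains every TG mouse lay on the other side of its WT mice than in the rest. Nppa was above WT in every TG mouse of AKR/J, where the difference was 0.35 ± 0.57 (SE), and of S129, where it was 0.43 ± 0.57, and below WT in every TG mouse of A/J, C57BL6/J and C3H. Mybpc3 was above WT in every TG mouse of S129, by 0.11 ± 0.13, and below WT in every TG mouse of A/J, C57BL6/J, Balb/cJ and C3H. This opposite placing was read from the mice's positions, with 1 WT mouse in AKR/J and in S129, and was not tested as such. The share of all genes placed in opposite ways between strains was not counted, so the placing cannot be weighed against it. For Mybpc3 in A/J the margin was narrow, with 7.4760 in TG mouse 2 and 7.4798 in the WT mouse. The F-test of whether the TG effect depends on strain did not pass for Nppa (limma adjusted p = 0.3) or Mybpc3 (0.44).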

How the results depend on the processing

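TG against WT over all strains called 8 of the 10 genes under 10 of 14 alternatives that kept every mouse or left out a strain, and 9 or 10 under the other 4, and 8 to 10 with any 1 mouse left out. Whether the numbers of the labels pair the mice is not known. In C57BL6/J, the strain with 2 mice of each genotype, same-numbered mice correlated at 0.0583 in their deviations across genes. This value from 1 strain cannot settle the question, and strains with 1 WT mouse allow no such check. With the replicate number as a block (6 residual degrees of freedom) 8 members were called, Myl7 lay at -1.07, and 1854 genes were called over the table, against 3601 without it. In that fit TG mice 2 and 3 of each strain with 1 WT mouse had no partner in their block and added nothing to the estimate. The calls on Nr2f1, Npr3, Neb, Xirp2, Adipoq, Lrrn4, Msln and Sftpd were lost with the block (adjusted p 0.056 to 0.17). With 1 mouse left out, the count of members called was 0 to 1 for the prone minus resistant effect, for strain dependence, for WT prone against resistant, in S129 and in C3H, 6 to 8 for the level among strains, 3 to 6 for TG prone against TG resistant mice, 8 to 9 in A/J, 0 in AKR/J, 3 to 10 in C57BL6/J and 0 to 5 in Balb/cJ. TG prone against TG resistant mice gave 3 members without A/J or S129, 2 without C57BL6/J and 8 without Balb/cJ (Nppa among them in the opposite direction), and Tnnt2 turned to 0.031 without C57BL6/J. In Balb/cJ 3 members were called with genes under the lower quartile of mean level left out and 4 with array weights. The atrial minus general median ran from -0.12 to 0.08. Of genes not called, Gata6 (0.031) turned to -0.010 without Balb/cJ and ran from -0.010 to 0.059 with 1 mouse left out, and Mpped2 (-0.05) turned to 0.023 without A/J and 0.030 without Balb/cJ and ran from -0.15 to 0.030. The cause of these changes was not tested beyond the fewer mice or genes in each fit. Mybpc3 and Casq2 lay below the array median in 23 of 24 mice.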
